A study of Mus musculus with 16 samples.

Results

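T cell receptors built with a TRAV13 variable segment were described in CD44high CD4+ T cells, the antigen-experienced helper T cells, of mouse spleen. The members were the TRA chains whose V label starts with TRAV13-, TRAV13D- or TRAV13N-, in cells with exactly 1 TRB chain and 1 or 2 TRA chains. They came from 5490 of 38108 such cells (14.4%) and made up 5537 of 40428 TRA chains (13.7%). Counted as receptors, that is, 1 TRB chain paired with 1 TRA chain in 1 library and counted once whatever its number of cells, they were 4015 of 32344 (12.4%). By receptors the family ranked 3 among 20 TRAV families. The family was chosen by its V label and with earlier results of these data known, so its size and the use of its copies are given as a description.

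The study asked how an agonistic antibody to 4-1BB, a costimulatory receptor of T cells also called CD137, acts on CD4+ T cells with and without the transcription factor Eomes. All mice received an antibody that depletes NK1.1-bearing cells (50 µg, days -2 and 5) and a graft of the Vk*Myc myeloma line Vk12653 at day 0, then agonistic anti-4-1BB or control IgG (20 µg, days 10, 13 and 16). Spleen cells were sorted at day 18. In experiment 2, KO anti-4-1BB and KO IgG mice were Eomesfl/fl-ERT2CD4Cre, WT anti-4-1BB and WT IgG mice were Eomes-IRES-GFP, and all of them, WT included, also received tamoxifen. In experiment 1, KO anti-4-1BB and KO IgG mice were Eomesfl/fl-CD4Cre and WT anti-4-1BB and WT IgG mice were Eomes-IRES-GFP, without tamoxifen. The CD4Cre deletes in T cells from their development on, and the type of knockout, tamoxifen and experiment cannot be told apart. Each of the 4 groups had 2 libraries, 1 per experiment. The number of mice per library and their age were not given in the labels, so p-values measure the spread between libraries, which may be technical. In the main count fits between treatments and between genotypes that spread also holds the difference between the experiments, since they have no term for it.

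The contig files hold no gene expression, so CD4, CD44 and Eomes itself cannot be checked in them. Of the TRAV13 cells, 3 also carried the invariant alpha chain of natural killer T cells and 0 carried that of mucosal-associated invariant T cells. All 123611 contigs were of TRA or TRB, so cells with other receptor chains cannot be looked for in them. Depth was 80551 to 445027 receptor UMIs and 2656 to 8871 kept cells per library. The median UMI count of TRAV13 chains and of other TRA chains differed by at most 1 in every library. Cell barcodes seen in more than 1 library numbered 866, and 0 of them carried the same receptor in both.

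A T cell receptor alpha chain is made by joining 1 TRAV segment to 1 TRAJ segment. The loops CDR1 and CDR2 are written in the TRAV segment and mainly contact the MHC molecule, while CDR3 spans the junction with TRAJ and mainly contacts the peptide. In the mouse strain of the reference genome, part of the TRAV region is repeated along chromosome 14, and names with a D or an N mark the repeated copies, so a family has several near-identical genes. The beta chain is assembled from TRBV, TRBD and TRBJ segments in the same way, and a receptor found in several animals is called public.

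The labels fall into classes by the loops they encode, and these classes return in the pairing results further on. The CDR1 sequences of the deposited contigs are printed 5′ to 3′, with capitals at the bases that differ from TRAV13-1.
TRAV13-1: acatctttgaacagt
TRAV13N-1: acatctttgaacagt
TRAV13D-1: acatctttgaacagt
TRAV13N-2: TcCAcAGCAaCcCAG
TRAV13-2: TcCAcAGCAaCcCgG
TRAV13D-4: TcCAcAGCAaCcCgG
TRAV13-4-DV7: TcCAcAGCAaCcCgG
TRAV13N-4: aTCtTtACAaacCAG
TRAV13D-3: acaActttgaacagt
TRAV13N-3: acaActttgaacagt
TRAV13-1, TRAV13N-1 and TRAV13D-1 thus share 1 CDR1 and could not be told apart by it. The CDR2 was aatccttctgggaca in the main sequence of all of these labels but TRAV13D-3 and TRAV13N-3, which carried agtccttcttgggcagag, a longer loop.

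Over the V bases common to the contigs, TRAV13D-1 and TRAV13N-1 differed at 1 of 258 positions, and TRAV13D-3 and TRAV13N-3 at 1 of 264. TRAV13-1 differed from TRAV13D-1 at 10 positions and from TRAV13N-1 at 11, and TRAV13N-2 differed from TRAV13-1 at 23. How reads were split between TRAV13D-1 and TRAV13N-1 therefore rests on very few bases. Of 4011 receptors compared without regard to the V label, 4 carried 2 different V labels. A further 29 chains, 11 labelled TRAV13N-2 and 18 labelled TRAV13N-4, carried the CDR1 aTCtctACAaacCAG and the CDR2 aTtcctGGAATgaAG, which match none of the sequences that lead the 10 labels. These chains were kept under their deposited labels.

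The V segment also writes the first bases of CDR3, and the labels differ there. The most common first 11 bases were tgtgctttgga with TRAV13-1 (53.4% of its receptors), tgtgctatgga with TRAV13N-1 (40.6%) and TRAV13D-1 (44.3%), and tgtgctataga with TRAV13N-2 (41.5%).

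All 10 labels occurred in all 8 libraries, and 3 of the 13 Trav13 genes annotated in RefSeq (GRCm38.p6) were not seen. TRAV13-1 (chr14:53545014-53545525) was the most used copy, with 1267 receptors or 31.6% of the family. TRAV13N-2 (chr14:53253792-53254317) followed with 1059 receptors (26.4%). TRAV13-2 (chr14:53634888-53635399) had 429 and TRAV13N-1 (chr14:53162399-53162910) had 426 receptors, 10.7% and 10.6% of the family. The next were TRAV13-4-DV7 (chr14:53757410-53757921) with 333 receptors and TRAV13D-1 (chr14:52851355-52851866) with 203. TRAV13N-3, TRAV13N-4, TRAV13D-4 and TRAV13D-3 were rare, with 97, 95, 68 and 38 receptors.

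In every library TRAV13-1 and TRAV13N-2 were the leading copies. The share of TRAV13-1 among all receptors ranged from 3.16% to 6.21% with a median of 3.61%, and that of TRAV13N-2 from 2.39% to 4.17% with a median of 3.28%. TRAV13-1 was above TRAV13N-2 in 7 of 8 libraries, the exception being WT anti-4-1BB of experiment 1 with 3.21% TRAV13-1 and 3.51% TRAV13N-2. TRAV13N-1 ranged from 0.779% to 1.82% and TRAV13D-1 from 0.448% to 0.953%. The highest TRAV13-1, TRAV13N-1, TRAV13N-2 and TRAV13D-1 shares were all in the experiment 2 KO anti-4-1BB library. Without the cells that join TRBV1 to a TRAJ30 alpha chain, the highest TRAV13N-1 and TRAV13D-1 shares were in WT IgG of experiment 1. They were 1.76% and 0.92% there, against 1.47% and 0.86% in KO anti-4-1BB of experiment 2.

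**Figure D1:**
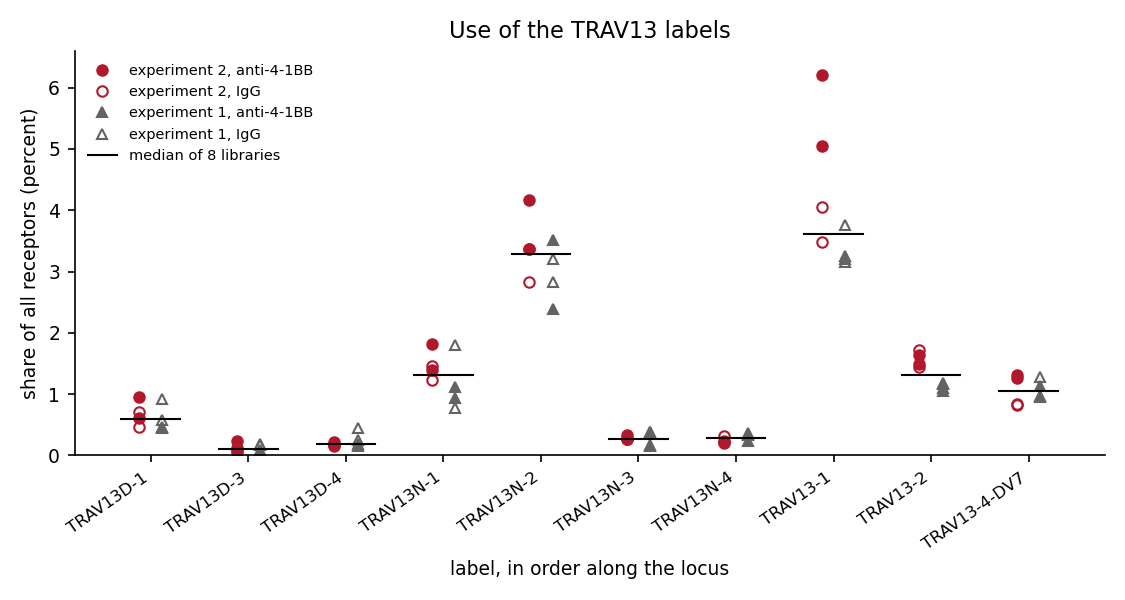
Share of all receptors (percent, y axis) carried by each of the 10 TRAV13 labels, ordered along the locus (x axis). Points are the 8 libraries, red circles for experiment 2 and grey triangles for experiment 1, filled for anti-4-1BB and open for IgG, and the line is the median. TRAV13-1 and TRAV13N-2 lie above 2% in every library, and the TRAV13-1 points above 5% are both anti-4-1BB libraries of experiment 2.

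The copies also differed in the TRAJ segments they were joined to. TRAV genes nearer to the TRAJ cluster are known to join first to the TRAJ segments nearest to them, which have the high numbers. The median TRAJ number was 49 for TRAV13-4-DV7 and 39 for TRAV13-2, the labels last along the locus, and 33 for TRAV13-1. It was 30 for TRAV13N-4, 26 for TRAV13N-3 and 23 for TRAV13N-2. From TRAV13N-2 to TRAV13-4-DV7 the medians thus rose in the order along the locus. The copies farther from the TRAJ cluster did not continue that order, with 26 for TRAV13N-1, 23 for TRAV13D-4, 26.5 for TRAV13D-3 and 30 for TRAV13D-1.

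Single copies had different leading partners. TRAV13-4-DV7 was joined most to TRAJ52 (37 receptors, 11.1%) and TRAV13-2 to TRAJ42 (40 receptors, 9.32%). TRAV13N-2 was joined most to TRAJ12 (100 receptors, 9.44%). TRAJ30 led in TRAV13-1 (154 receptors, 12.2%), TRAV13N-1 (43 receptors, 10.1%) and TRAV13D-1 (18 receptors, 8.87%).

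TRAV13 took the largest share of receptors under anti-4-1BB in experiment 2. In that experiment the family made up 16.9% of receptors in KO anti-4-1BB (620 of 3673, 95% Clopper-Pearson interval 15.7% to 18.1%), against 11.4% in KO IgG (10.5% to 12.3%). In WT of experiment 2 the shares were 14.2% with anti-4-1BB (12.9% to 15.5%) and 12.6% with IgG (11.6% to 13.7%). In experiment 1 they were 10.0% in KO anti-4-1BB (8.87% to 11.2%), against 10.8% in KO IgG (9.62% to 12.1%), and 11.3% in WT anti-4-1BB (10.6% to 12.004%), against 13.0% in WT IgG (11.9% to 14.2%). The anti-4-1BB libraries were therefore above their IgG libraries in experiment 2 and below them in experiment 1. The intervals cover counting error only, and those of the treatment pairs were apart only in KO of experiment 2.

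Counted by chains, so that large clones weigh more, the difference within experiment 2 was wider. TRAV13 made up 22.9% of TRA chains in KO anti-4-1BB and 11.1% in KO IgG, and 16.9% in WT anti-4-1BB and 13.1% in WT IgG. In experiment 1 the chain shares were 10.1% in KO anti-4-1BB and 10.7% in KO IgG, and 11.7% in WT anti-4-1BB and 12.7% in WT IgG. Without the cells that join TRBV1 to a TRAJ30 alpha chain, described further on, the experiment 2 chain shares were 17.6% in KO anti-4-1BB and 10.8% in KO IgG, and 14.1% in WT anti-4-1BB and 12.9% in WT IgG. In experiment 1 they then lay between 9.99% and 12.5%.

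**Figure D2:**
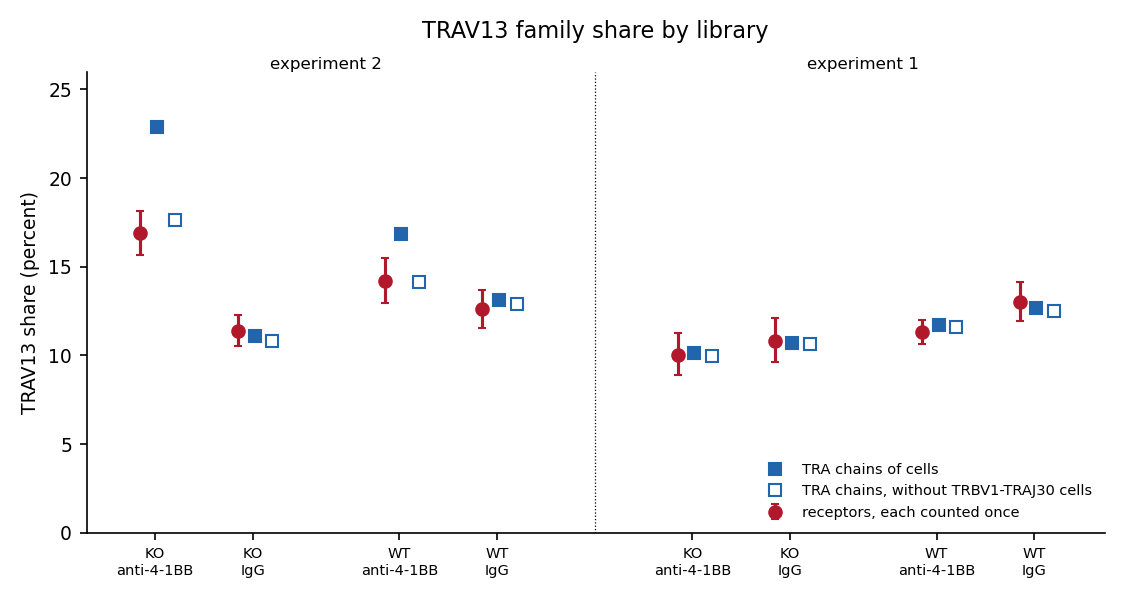
TRAV13 share (percent, y axis) in the 8 libraries, grouped by experiment, genotype and treatment (x axis). Red circles count each receptor once with the 95% Clopper-Pearson interval, filled blue squares count the TRA chains of cells, and open blue squares count chains without the TRBV1-TRAJ30 cells. The experiment 2 KO anti-4-1BB library stands highest on all measures, at 16.9%, 22.9% and 17.6%.

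Tested across libraries, none of these differences passed. In the fit of all TRAV families with edgeR's quasi-likelihood test, 0 of 19 families were called between anti-4-1BB and IgG (0.00%, 1 at an unadjusted p under 0.05), and the TRAV13 log2 fold change was 0.13 ± 0.18 (SE, adjusted p = 0.81). Between KO and WT 0 of 19 were called (0.00%, 0 unadjusted), with -0.06 ± 0.18 for TRAV13 (adjusted p = 0.95). For the difference of the treatment effects between KO and WT the value was 0.29 ± 0.37 (adjusted p = 0.98), with 0 of 19 called (0.00%, 0 unadjusted). Between experiment 2 and experiment 1 it was 0.27 ± 0.16 (adjusted p = 0.38), with 0 of 19 called (0.00%, 2 unadjusted). It was 0.12 without either KO anti-4-1BB library, and both removals are 1 check, as each takes that group out of this comparison. DESeq2 called the TRAV13 family in none of the 4 comparisons. Leaving out the experiment 2 KO anti-4-1BB library turned the treatment value to -0.081 and the difference of the treatment effects to -0.14.

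The single copies were tested in the fit of all V and J segments. Of 154 segments, edgeR called 2 between anti-4-1BB and IgG (1.30%, 6 at an unadjusted p under 0.05), 1 between KO and WT (0.649%, 4 unadjusted), 0 for the difference of the treatment effects (0.00%, 4 unadjusted) and 4 between experiment 2 and experiment 1 (2.60%, 18 unadjusted). TRAV13D-3 had too few receptors for the test, and of the 9 other labels 0 were called in any of the 4 comparisons, by edgeR or by DESeq2. With edgeR, 0 of the 9 had an unadjusted p under 0.05 in the first 3 comparisons and 2 had one between the experiments.

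With anti-4-1BB against IgG, the log2 fold changes of the 9 labels ran from -0.34 to 0.29 with a median of 0.02, beside a median of -0.02 over all segments. TRAV13-1 had 0.29 ± 0.23, TRAV13N-2 0.15 ± 0.23, TRAV13N-1 0.02 ± 0.26 and TRAV13D-1 -0.13 ± 0.30 (SE, edgeR, adjusted p = 0.96 for TRAV13-1, TRAV13N-2 and TRAV13D-1 and adjusted p = 0.98 for TRAV13N-1). The TRAV13-1 value was 0.016 without KO anti-4-1BB and 0.12 without WT anti-4-1BB of experiment 2, and 0.48 and 0.45 without the same libraries of experiment 1. Between KO and WT the labels ran from -0.58 to 0.22. TRAV13-1 had -0.0008, TRAV13N-2 -0.14 ± 0.23, TRAV13N-1 -0.23 ± 0.26 and TRAV13D-1 0.22 ± 0.30 in that comparison, with an adjusted p of 0.997 or above for the 9 labels. For the difference of the treatment effects between KO and WT the labels ran from -0.64 to 0.85, the highest being TRAV13N-1 with 0.85 ± 0.52 (SE, edgeR, adjusted p = 0.99). The labels with an unadjusted p under 0.05 between experiment 2 and experiment 1 were TRAV13-1, with 0.46 ± 0.21 (edgeR, adjusted p = 0.33), and TRAV13-2, with 0.48 ± 0.24 (edgeR, adjusted p = 0.40).

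Across the 8 libraries, the family whose log2 receptor share moved most like that of TRAV13 was TRAV4 (Pearson r = 0.583), followed by TRAV7 (0.558) and TRAV21 (0.298), among 15 other families with at least 200 receptors. This is a description over 8 libraries, and shares of 1 library are parts of the same total.

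The rule that chose the family used the V label and not the partner segments, so TRAV13 receptors were compared with all other receptors of the same library. TRAJ use also follows the place of a TRAV gene along the locus, and TRBV1 and TRAJ30 were singled out from earlier results of these data, so their calls are no independent support. Of 43 TRAJ segments tested, 8 were called (18.6%, 12 at an unadjusted p under 0.05, edgeR). TRAJ30 and TRAJ27 were more frequent with TRAV13, and TRAJ15, TRAJ22, TRAJ26 and TRAJ40 were less frequent. The count of 8 also holds TRAJ5 and TRAJ7, which were less frequent too. They entered the test through the columns of other receptors alone, so they are a description and no support.

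TRAJ30 was the strongest partner. Its share of TRAV13 receptors in experiment 2 was 14.2% in KO anti-4-1BB, 6.77% in KO IgG, 11.3% in WT anti-4-1BB and 7.04% in WT IgG, against 3.54%, 2.94%, 3.61% and 3.67% of other receptors in the same libraries. In experiment 1 it was 4.71%, 4.17%, 4.29% and 3.42% in the same order of groups, against 3.10%, 3.22%, 2.65% and 3.17% of other receptors. TRAV13 was above the others in 8 of 8 libraries, and the gap was wide in experiment 2 and narrow in experiment 1. The mean was 6.99% ± 3.85 with TRAV13 and 3.24% ± 0.36 with other TRAV segments (SD, n = 8 libraries), a log2 difference of 1.07 ± 0.16 (SE, edgeR, adjusted p = 8.4e-07). By experiment, TRAV13 minus other was 6.38 ± 3.44 points in experiment 2 and 1.11 ± 0.66 points in experiment 1 (SD, n = 4 libraries each).

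Most of that excess lay in receptors with TRBV1. Without the cells that join TRBV1 to TRAJ30, the TRAJ30 share was 3.91% with TRAV13 and 3.06% with other TRAV segments, higher in 6 of 8 libraries, and the difference was 0.37 ± 0.15 and no longer passed (edgeR, adjusted p = 0.088). That removal takes TRAJ30 receptors out by its own construction.

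TRAJ27 passed with and without those cells. Its share was 6.54% ± 0.98 with TRAV13 and 4.38% ± 0.59 with other TRAV segments (SD, n = 8 libraries), higher in 7 of 8 libraries, with a log2 difference of 0.57 ± 0.14 (SE, edgeR, adjusted p = 0.0038). Without the TRBV1-TRAJ30 cells it was 0.61 ± 0.13 (edgeR, adjusted p = 0.00081). The difference in points was similar in both experiments, 2.22 ± 0.97 in experiment 2 and 2.09 ± 1.98 in experiment 1 (SD, n = 4 libraries each). The library in which TRAJ27 was lower with TRAV13 was WT IgG of experiment 1, with 4.70% against 5.44%. With every cell counted in place of distinct receptors the call ended, at 0.58 ± 0.23 (edgeR, adjusted p = 0.097).

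The filter asks for 10 or more receptors in at least 2 columns. TRAJ5 and TRAJ7 met it in 0 of the 8 TRAV13 columns and entered the test through the columns of other receptors, where they are more frequent, so their values are a description. TRAJ7 made up 0.587% ± 0.33 of TRAV13 receptors and 1.27% ± 0.18 of others (SD, n = 8 libraries), lower in 8 of 8 libraries, with a log2 difference of -1.07 ± 0.28 (edgeR, adjusted p = 0.0044). TRAJ5 had 5 TRAV13 receptors in all, 0.101% against 0.481%, a log2 difference of -1.99 ± 0.53 (edgeR, adjusted p = 0.0044). TRAJ40 was lower in 8 of 8 libraries, at 2.57% ± 0.69 against 3.85% ± 0.58 (SD, n = 8 libraries), and had -0.53 ± 0.17 (edgeR, adjusted p = 0.018). TRAJ15 (-0.61 ± 0.19), TRAJ22 (-0.49 ± 0.16) and TRAJ26 (-0.53 ± 0.18) had smaller margins, with adjusted p of 0.018, 0.022 and 0.028 (edgeR). With trimmed-mean scaling 4 of the 8 calls were kept, the calls of TRAJ15, TRAJ22, TRAJ26 and TRAJ40 were lost, and TRAJ39 and TRAJ42 were gained. TRAJ39 and TRAJ42 were more frequent with TRAV13 and just missed the threshold with all cells, at 0.39 ± 0.16 (edgeR, adjusted p = 0.078) and 0.40 ± 0.17 (edgeR, adjusted p = 0.084). Without the TRBV1-TRAJ30 cells both passed, at 0.45 ± 0.15 (edgeR, adjusted p = 0.033) and 0.45 ± 0.16 (edgeR, adjusted p = 0.038). Without WT anti-4-1BB of experiment 1, or without WT IgG of experiment 2, 5 TRAJ segments were called.

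Of 22 TRBV segments tested, 3 were called (13.6%, 6 at an unadjusted p under 0.05, edgeR). TRBV1 was more frequent with TRAV13, at 9.70% ± 3.37 against 5.92% ± 1.16 with other TRAV segments (SD, n = 8 libraries), higher in 8 of 8 libraries, with a log2 difference of 0.69 ± 0.13 (SE, adjusted p = 4.3e-05, edgeR). The difference was 5.61 ± 3.36 points in experiment 2 and 1.96 ± 1.23 in experiment 1 (SD, n = 4 libraries each). TRBV1 reached 15.3% of TRAV13 receptors in KO anti-4-1BB and 13.5% in WT anti-4-1BB of experiment 2, and lay between 5.10% and 9.94% in the 6 other libraries. Without the TRBV1-TRAJ30 cells the log2 difference was 0.19 ± 0.13 (edgeR, adjusted p = 0.41). That removal lowers the TRBV1 share by its own construction, since it takes the TRAV13 receptors with TRBV1 from 396 to 257. With cells counted in place of receptors the log2 difference was 0.90 ± 0.29 (edgeR, adjusted p = 0.082).

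TRBV12-1 and TRBV3 were less frequent with TRAV13. TRBV12-1 made up 1.85% ± 1.84 of TRAV13 receptors and 2.82% ± 3.22 of others (SD, n = 8 libraries), lower in 8 of 8 libraries, with -0.60 ± 0.20 (edgeR, adjusted p = 0.043). The gap was wide in the anti-4-1BB libraries of experiment 1, with 5.49% against 8.90% in KO and 3.97% against 6.96% in WT. It was narrow elsewhere, down to 0.645% against 0.655% in KO anti-4-1BB of experiment 2. TRBV12-1 had 10 or more receptors in 2 of the 8 TRAV13 columns. TRBV3 made up 8.48% and 10.4%, with -0.34 ± 0.12 (edgeR, adjusted p = 0.045). Both calls were lost in several alternatives. Without the TRBV1-TRAJ30 cells TRBV12-1 had -0.58 ± 0.20 (edgeR, adjusted p = 0.059) and TRBV3 -0.29 ± 0.11 (edgeR, adjusted p = 0.085), while TRBV13-3 passed with 0.38 ± 0.12 (edgeR, adjusted p = 0.038). Without every TRBV1 and every TRAJ30 cell TRBV12-1 passed again, at -0.69 ± 0.22 (edgeR, adjusted p = 0.022). With KO IgG or WT anti-4-1BB of either experiment left out, or WT IgG of experiment 1, TRBV1 alone was called, a count of 1.

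**Figure D3:**
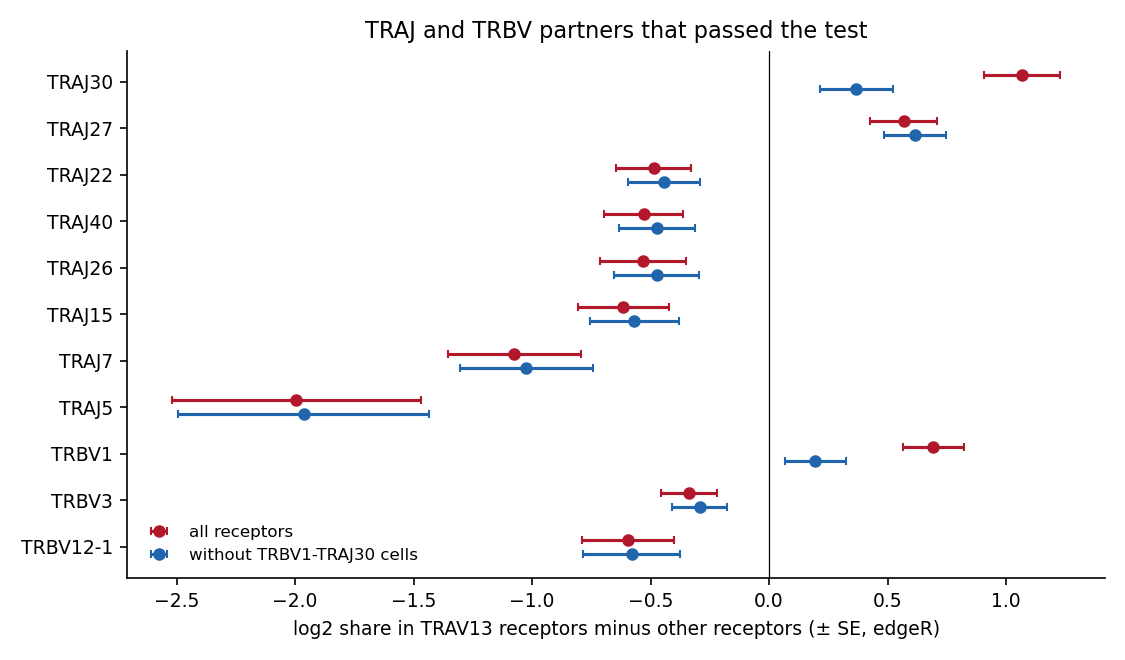
Difference in log2 share between TRAV13 receptors and other receptors of the same library (x axis, edgeR, ± SE, 8 libraries) for the 8 TRAJ and 3 TRBV segments that passed (y axis). TRAJ5 and TRAJ7 entered the test through the columns of other receptors alone. Red points use all receptors and blue points leave out the TRBV1-TRAJ30 cells. Without those cells TRAJ30 lies at 0.37 and TRBV1 at 0.19, and the other segments lie close to their values with them.

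Receptors of TRBV1 with a TRAJ30 alpha chain belonged mostly to TRAV13. Of 595 such cells 535 (89.9%) and of 186 such receptors 135 (72.6%) carried a TRAV13 chain. Among the TRAV13 ones, 93.3% had a CDR3 alpha of 12 amino acids, 87.4% used TRBJ2-4 and 89.6% had a CDR3 beta of 14 amino acids.

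Within TRAV13, the pairing with TRBV1 differed between the CDR1 classes. TRAV13-1, TRAV13N-1 and TRAV13D-1 differ from each other at 1 to 11 of 258 V bases, and TRAV13-1 differs from TRAV13N-2 at 23. CDR1 and the rest of the V segment thus cannot be told apart here. The tabulation by CDR1 class was chosen after its values were seen and carries no test. Of the TRAJ30 receptors with the CDR1 of TRAV13-1, 130 of 215 (60.5%) had TRBV1. Of those with another CDR1, 5 of 72 (6.94%) had it, close to the 51 of 888 (5.74%) among TRAJ30 receptors of all other TRAV families. With TRAJ segments other than TRAJ30 the order was the other way, 84 of 1680 (5.00%) with the CDR1 of TRAV13-1 and 177 of 2048 (8.64%) with another CDR1.

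The labels that share that CDR1 had similar TRBV1 shares among their TRAJ30 receptors, 94 of 154 (61.0%) for TRAV13-1, 26 of 43 (60.5%) for TRAV13N-1 and 10 of 18 (55.6%) for TRAV13D-1. TRAV13N-2 had 3 of 45 (6.67%) and TRAV13-2 had 2 of 13. The class with the CDR1 of TRAV13-1 was the higher in 8 of 8 libraries, also where TRBV1-TRAJ30 cells were few. In experiment 2 the shares were 68.4% against 16.7% in KO anti-4-1BB, 51.6% against 2 of 8 receptors in KO IgG, 67.5% against 0 in WT anti-4-1BB and 47.8% against 0 in WT IgG. In experiment 1 they were 100% (5 of 5 receptors) against 0 in KO anti-4-1BB, 50.0% against 0 in KO IgG, 45.8% against 6.25% in WT anti-4-1BB and 50.0% against 0 in WT IgG. The other class held 4 to 16 TRAJ30 receptors per library, so a value of 0 there rests on few receptors.

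The most frequent 12-residue TRAJ30 alpha CDR3 of 4 labels show the end that these chains have in common and the V-J junction at which they differ. Capitals are bases that differ from the TRAV13-1 sequence.
TRAV13-1: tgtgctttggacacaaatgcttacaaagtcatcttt
TRAV13N-1: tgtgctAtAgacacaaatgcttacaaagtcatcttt
TRAV13D-1: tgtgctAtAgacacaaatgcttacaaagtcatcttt
TRAV13N-2: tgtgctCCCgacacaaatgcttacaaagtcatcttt
The last 27 bases, gacacaaatgcttacaaagtcatcttt, were the same in the leading sequence of each label, and 94.1% of the TRAV13-1 cells and 98.3% of the TRAV13N-1 cells of this length ended in them. The TRAV13-1 sequence was carried by 189 of 320 such cells, the TRAV13N-1 sequence by 81 of 230 and the TRAV13N-2 sequence by 10 of 49. Among the TRAV13N-2 cells of this length 4.08% had TRBV1, against 87.5% of the TRAV13-1 cells and 96.1% of the TRAV13N-1 cells, so the shared TRAJ30 end did not by itself go with TRBV1.

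These receptors were seen in all 8 libraries, and took a large share of TRAV13 chains in 2 of them. In experiment 2, KO anti-4-1BB had 324 such chains of 1165 (27.8%) in 54 receptors, against 23 of 705 (3.26%) in KO IgG. WT anti-4-1BB of experiment 2 had 148 of 781 (19.0%) in 27 receptors, against 12 of 614 (1.95%) in WT IgG. In experiment 1 the counts were 5 of 287 (1.74%) in KO anti-4-1BB, against 2 of 309 (0.647%) in KO IgG, and 14 of 1135 (1.23%) in WT anti-4-1BB, against 7 of 541 (1.29%) in WT IgG.

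The copies behind them differed between the experiment 2 anti-4-1BB libraries. In KO anti-4-1BB 198 of the chains were TRAV13N-1 and 108 TRAV13-1, while in WT anti-4-1BB 130 were TRAV13-1 and 16 TRAV13N-1. Of the 198 chains, 167 were in 3 receptors of 68, 50 and 49 cells. With 1 library of each group per experiment, this difference has no replicate.

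**Figure D4:**
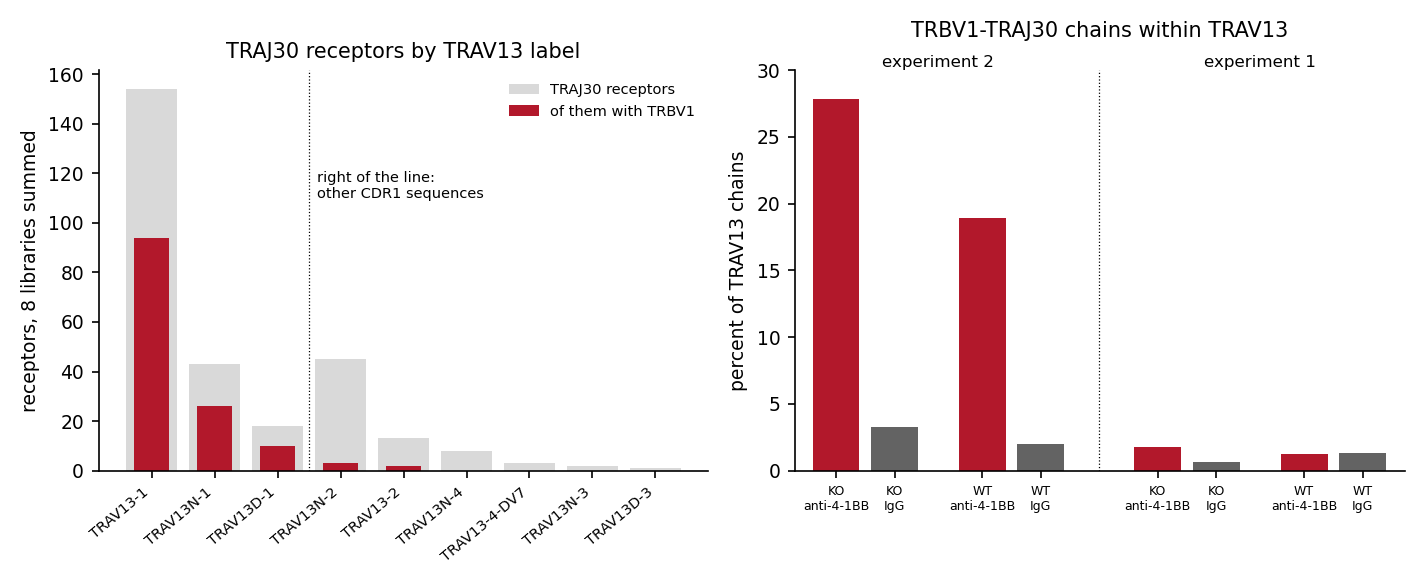
Left, receptors with TRAJ30 (grey, y axis: number of receptors over 8 libraries) and those of them with TRBV1 (red) for each TRAV13 label with any (x axis), the labels sharing the CDR1 of TRAV13-1 being left of the line. Right, TRBV1-TRAJ30 chains as a percent of TRAV13 chains (y axis) in each library (x axis), red for anti-4-1BB and grey for IgG. TRBV1 holds 94 of 154, 26 of 43 and 10 of 18 receptors left of the line, and the anti-4-1BB libraries of experiment 2 reach 27.8% and 19.0%.

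Pairs were joined by amino acids, so that 1 pair can hold several nucleotide forms, and the sequences printed for a pair are its most common form. Pairs were called recurrent when the TRBV, the CDR3 beta amino acids, the TRAV13 label, the TRAJ and the CDR3 alpha amino acids were the same in 2 or more libraries. Of 3896 distinct TRAV13 pairs, 29 recurred (0.744%, interval 0.499% to 1.07%), against 121 of 28099 pairs of other TRAV segments (0.431%, 0.357% to 0.514%). Without the TRBV1-TRAJ30 cells the shares were 21 of 3811 (0.551%) with TRAV13 and 121 of 28039 (0.432%) with other TRAV segments. The intervals overlap with and without those cells, narrowly with them, which does not show that the shares are equal. They treat pairs pooled over libraries as independent, and the difference was not tested. Of the 29 pairs, 8 were TRBV1 with TRAJ30, 8 used TRBV26, 5 TRBV5 and 2 TRBV16. In both experiments 11 of them were found, 16 in experiment 2 alone and 2 in experiment 1 alone.

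The TRBV1 pairs that recurred in most libraries had the amino acids of the TRAV13-1 alpha CDR3 printed before, and TRBJ2-4. The most common nucleotide form of each beta CDR3 is shown because the 3 share both ends and differ between them.
Leading beta form of the pair in 7 libraries: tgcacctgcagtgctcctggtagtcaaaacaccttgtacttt
Leading beta form of the pair in 5 libraries: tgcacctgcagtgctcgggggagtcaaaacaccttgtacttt
Leading beta form of the pair in 4 libraries: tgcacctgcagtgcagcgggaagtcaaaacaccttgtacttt
These forms were carried by 4 of 18, 11 of 30 and 23 of 102 cells, each in 1 library, and the pairs held 10, 7 and 12 beta forms in all. The other libraries of each pair thus held the same amino acids in other bases. The pair found in 7 libraries had 18 cells, with 1 to 5 in each and 0 in KO IgG of experiment 1. It was thus spread over treatments, genotypes and experiments without being large in any. The pair in 5 libraries had 30 cells, 22 of them in KO anti-4-1BB of experiment 2. The pair in 4 libraries was large, with 102 cells, 37 in KO anti-4-1BB, 2 in KO IgG, 61 in WT anti-4-1BB and 2 in WT IgG of experiment 2, and was not seen in experiment 1.

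A further TRBV1 pair, with the leading alpha form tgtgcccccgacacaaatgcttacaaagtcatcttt (13 of its 32 cells), was in 3 libraries, with 16 in KO anti-4-1BB and 15 in WT anti-4-1BB of experiment 2 and 1 in WT anti-4-1BB of experiment 1. A TRBV1 pair with TRAV13N-1 and the leading alpha form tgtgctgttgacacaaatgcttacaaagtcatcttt (49 of 59 cells) had 49 cells in KO anti-4-1BB and 10 in WT anti-4-1BB of experiment 2.

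Outside TRBV1, the recurrent pairs formed groups in which 1 beta CDR3 met several close alpha chains. These groups were picked after their values were seen and are described only. The largest group of TRBV26 with TRAV13-1 and TRAJ37 shared 1 beta CDR3 of 12 amino acids in 6 nucleotide forms, the leading one being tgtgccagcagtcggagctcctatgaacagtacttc (27 of 48 cells). These amino acids met 9 different alpha CDR3 in 48 cells, 35 in KO anti-4-1BB, 5 in KO IgG, 6 in WT anti-4-1BB and 2 in WT IgG of experiment 2, and 0 in experiment 1. The leading forms of the next 3 alpha CDR3 differed from the first in 1 base, in capitals, at the V-J junction, and the cell numbers are those of the printed form.
Alpha 1, 12 cells: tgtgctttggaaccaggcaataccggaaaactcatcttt
Alpha 2, 11 cells: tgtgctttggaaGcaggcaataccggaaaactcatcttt
Alpha 3, 5 cells: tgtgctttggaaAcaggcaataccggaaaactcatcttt
Alpha 4, 5 cells: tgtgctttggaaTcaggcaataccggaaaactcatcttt
All 4 possible bases were thus found at that junction position. Smaller groups of the same segments had other beta CDR3, and 1 of these, with 9 cells, had 1 in KO anti-4-1BB of experiment 1.

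TRBV5 with TRAV13N-2 and TRAJ12 formed a group led by experiment 1. Its main beta CDR3 was written in 9 nucleotide forms, the leading one being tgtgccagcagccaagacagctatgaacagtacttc (22 of 57 cells). These amino acids met 7 alpha CDR3, in 17 nucleotide forms, in 57 cells. Of these, 50 were in WT anti-4-1BB and 1 in KO anti-4-1BB of experiment 1, and 5 in KO anti-4-1BB and 1 in WT anti-4-1BB of experiment 2. None of the 4 IgG libraries had one. Capitals mark the bases that differ from the first alpha, and the cell numbers are those of the printed form.
Alpha 1, 12 cells: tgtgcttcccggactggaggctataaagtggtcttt
Alpha 2, 7 cells: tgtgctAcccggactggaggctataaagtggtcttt
Alpha 3, 6 cells: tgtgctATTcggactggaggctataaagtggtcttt
WT anti-4-1BB of experiment 1 thus held most of these cells.

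TRBV16 with TRAV13N-2 and TRAJ27 was found mostly in KO IgG. Its main pair had 7 cells in 4 libraries, and its leading forms were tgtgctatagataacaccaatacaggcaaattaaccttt for alpha (6 cells) and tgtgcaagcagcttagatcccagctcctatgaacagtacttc for beta (4 cells). With all 6 alpha CDR3 the group had 21 cells, 10 in KO IgG and 1 in WT IgG of experiment 2, and 2 in KO anti-4-1BB, 7 in KO IgG and 1 in WT IgG of experiment 1. The other 3 libraries had 0.

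Alpha chains alone recurred with many betas. They were joined by amino acids too, and the leading form is printed. The TRAV13-1 TRAJ30 alpha CDR3 was found in 7 libraries, in 224 cells with 61 different TRB chains and 5 nucleotide forms. The alpha CDR3 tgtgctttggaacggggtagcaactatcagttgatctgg of TRAV13-1 with TRAJ33 was found in 7 libraries in 12 cells, each with a TRB chain of its own. Likewise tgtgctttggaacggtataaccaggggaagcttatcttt of TRAV13-1 with TRAJ23 was in 7 libraries in 8 cells with 8 TRB chains. Both chains were spread over libraries with a different TRB chain in each cell. Of the others, some had most of their cells in 1 library. TRAV13-1 with TRAJ34 and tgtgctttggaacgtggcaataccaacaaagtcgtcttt was in 6 libraries in 52 cells with 10 TRB chains, 45 of the cells in KO anti-4-1BB of experiment 2. The TRAV13N-1 TRAJ30 alpha CDR3 was in 5 libraries in 146 cells with 22 TRB chains, 136 of the cells in that library. The other TRAV13-1 TRAJ30 chain, led by the form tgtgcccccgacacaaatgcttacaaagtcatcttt, was in 6 libraries in 59 cells with 26 TRB chains, and the TRAV13N-2 TRAJ30 chain in 6 libraries in 17 cells with 10 TRB chains. TRAV13-1 with TRAJ31 and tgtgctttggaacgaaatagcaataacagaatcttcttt was in 5 libraries in 18 cells with 14 TRB chains.

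The share of TRAV13 receptors whose alpha chain was also seen in another library was 16.3%, against 14.6% of other receptors. The difference of 1.73 ± 3.56 points (SD, n = 8 libraries, higher in 6) did not exceed the spread (two-sided exact permutation test, p = 0.242, adjusted p = 0.363), and without the TRBV1-TRAJ30 cells it was -0.399 points.

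The CDR3 alpha of TRAV13 receptors was shorter than that of other receptors in 8 of 8 libraries. Its mean length was 12.99 amino acids with TRAV13 and 13.48 with other TRAV segments, a difference of -0.494 ± 0.072 (SD, n = 8 libraries). The two-sided exact permutation test gave p = 0.00781, the smallest that 8 libraries allow (adjusted p = 0.0469). The V segment writes the first bases of CDR3, so this length is not independent of the V label that chose the family. No other single TRAV family was compared in this way. The difference was -0.543 ± 0.042 in experiment 2 and -0.445 ± 0.062 in experiment 1 (SD, n = 4 libraries each), and -0.466 without the TRBV1-TRAJ30 cells. Over all receptors, 25.4% of TRAV13 chains and 14.5% of other chains had 12 amino acids, 32.9% and 30.7% had 13, 22.7% and 29.9% had 14, and 7.12% and 14.3% had 15. Lengths of 11 (6.15% and 3.68%) and 10 (2.19% and 1.14%) were also more frequent with TRAV13. The excess was thus at 13 amino acids and fewer, largest in points at 12, and the deficit at 14 and more. Among the copies the mean ran from 12.8 in TRAV13N-2 to 13.5 in TRAV13-4-DV7.

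The expanded share, the percent of TRA chains in receptors of 2 or more cells after thinning each library to 2656 cells, was high for TRAV13 in the experiment 2 anti-4-1BB libraries. In experiment 2 it was 51.0% in KO anti-4-1BB and 18.9% in KO IgG, and 52.3% in WT anti-4-1BB and 25.1% in WT IgG. In experiment 1 it was 19.5% in KO anti-4-1BB and 22.3% in KO IgG, and 14.2% in WT anti-4-1BB and 15.8% in WT IgG. Receptors of other TRAV segments had 25.0%, 21.2%, 39.2% and 21.0% in the same libraries of experiment 2 and 16.5%, 22.9%, 11.6% and 19.9% in those of experiment 1.

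Over all 8 libraries TRAV13 minus other was 5.21 ± 9.87 points (27.4% against 22.2%, SD, n = 8 libraries, higher in 5), which did not exceed the spread (two-sided exact permutation test, p = 0.188, adjusted p = 0.363). The difference was 10.2 ± 12.3 points in experiment 2 and 0.224 ± 3.30 in experiment 1 (SD, n = 4 libraries each). Without the TRBV1-TRAJ30 cells it was 2.32 points over 8 libraries, and the TRAV13 shares in experiment 2 were 36.9% in KO anti-4-1BB and 43.4% in WT anti-4-1BB. Without the experiment 2 KO anti-4-1BB library it was 2.24 points.

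By treatment, the expanded share of TRAV13 was 34.2% with anti-4-1BB and 20.6% with IgG, a difference of 13.7 ± 18.5 points (SD, n = 4 pairs of libraries, higher in 2 of 4; two-sided exact permutation test, p = 0.5). It was 7.55 points without either KO library of experiment 2, as each removal takes out the same pair, and 7.96 points without the TRBV1-TRAJ30 cells. By genotype it was 27.9% in KO and 26.9% in WT, a difference of 1.09 ± 5.94 points (SD, n = 4 pairs, higher in 2 of 4; two-sided exact permutation test, p = 0.875). With 4 pairs these tests cannot reach a p under 0.05. After adjustment over 6 permutation tests the values were 0.6 and 0.875.

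**Figure D5:**
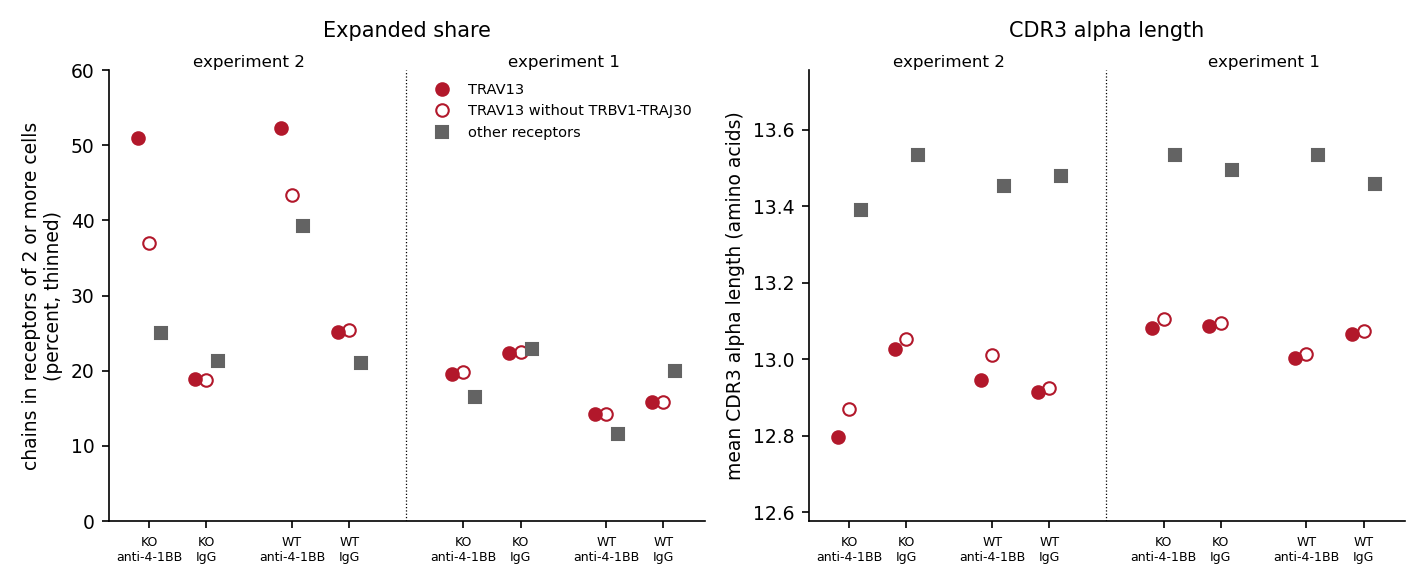
Left, expanded share (y axis: percent of TRA chains in receptors of 2 or more cells, thinned to 2656 cells) and right, mean CDR3 alpha length (y axis: amino acids, axis not starting at 0) in the 8 libraries (x axis). Red circles are TRAV13, open circles TRAV13 without the TRBV1-TRAJ30 cells and grey squares other receptors. The CDR3 alpha points of TRAV13 lie under those of other receptors in every library, while the expanded share stands out in the anti-4-1BB libraries of experiment 2, at 51.0% and 52.3%.

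By copy, the expanded share of the experiment 2 anti-4-1BB libraries was highest in TRAV13N-1 in KO. Without thinning, 80.4% of the TRAV13N-1 chains of KO anti-4-1BB were in receptors of 2 or more cells, and 32.8% without the TRBV1-TRAJ30 cells. For TRAV13-1 the values were 59.9% and 51.3% in KO anti-4-1BB, and 65.1% and 43.7% in WT anti-4-1BB. In WT anti-4-1BB of experiment 2 the copy with the highest share was TRAV13-4-DV7, at 71.4% with and without those cells. Of its 105 chains in that library 75 were expanded, 57 of them in 1 receptor. TRAV13N-1 had 62.1% there with the TRBV1-TRAJ30 cells and 57.75% without. TRAV13N-2 had 39.9% and 40.4% in KO anti-4-1BB and 52.2% both ways in WT anti-4-1BB. The largest TRAV13 receptor had 68 cells in KO anti-4-1BB of experiment 2, 1.39% of its cells, and joined TRAV13N-1 with TRAJ30 to TRBV1. The next had 57 cells in WT anti-4-1BB of experiment 2 and was of another kind, TRAV13-4-DV7 with TRAJ58 and TRBV16. Of the 20 largest receptors of a library, TRAV13 held 10 in KO anti-4-1BB and 1 in KO IgG, and 5 in WT anti-4-1BB and 3 in WT IgG of experiment 2. In experiment 1 it held 2 in KO anti-4-1BB and 1 in KO IgG, and 1 in WT anti-4-1BB and 4 in WT IgG.

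A second alpha chain, which a T cell can keep because TRA rearranges on both chromosomes, was compared last. Of TRAV13 chains 11.9% sat in cells with 2 TRA chains, against 10.8% of other chains, a difference of 1.14 ± 1.61 points that did not exceed the spread (SD, n = 8 libraries, higher in 5; two-sided exact permutation test, p = 0.0938, adjusted p = 0.281). The share was highest in the library with most cells, WT anti-4-1BB of experiment 1 with 8871 cells, at 19.3% of TRAV13 chains and 16.1% of others. No doublet caller was run on the contigs, and cells with more than 1 TRB chain were left out. Doublets can give a second alpha chain, and their part in these shares was not tested. Cells with 2 TRAV13 chains numbered 47.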

How the data were processed

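Single-cell 5′ receptor libraries were made from sorted spleen cells, per the labels' protocols. The deposited files list assembled contigs with their V and J labels, CDR sequences each contig's count of reads and its UMI count (unique molecular identifiers), per the file headers. The submitters' processing notes name bcl2fastq 2.20.0, Cell Ranger 7.1.0, Seurat and the build GRCm38, and no V(D)J reference. The 8 gene expression libraries were not analysed here.

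Distinct receptors per segment were counted, and tested with edgeR 4.0.16 (quasi-likelihood, R 4.3.3) over segments with 10 or more receptors in at least 2 columns, with 4 group means, the segment type's total as library size and Benjamini-Hochberg adjustment over all segments (called under 0.05). Partners were fitted with 2 columns per library and the library as a block. The TRAV fit had infinite prior degrees of freedom, so each SE rests on a spread pooled over TRAV labels. No doublet caller was run. The label TRBV12-2+TRBV13-2 joins 2 genes. Other values were compared with exact permutation tests over libraries, and log2 receptor shares for the likeness of families used a pseudocount of 0.5 receptors. DESeq2 1.42.0, Python 3.11.15, numpy 2.4.6, pandas 2.3.3, scipy 1.17.1 and matplotlib 3.10.9 were used besides, and the scripts were tested on simulated data. Intervals are 95% binomial (Clopper-Pearson) and cover counting error only.

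The members, lists and tests were chosen with earlier results of these data known. Named were all TRAV13 labels, all partners that passed (at most 8 in each direction) with TRAJ30 and TRBV1, and the 8 recurrent pairs and alpha chains in most libraries. Alternatives were trimmed mean of M values (TMM) factors, DESeq2, no filter, cells in place of receptors, the alpha chain of most UMIs alone, 3 or more UMIs per chain, merged copies, the experiment as a block, no thinning, both removals of TRBV1 and TRAJ30 cells, and each library left out. The experiment number pairs libraries of different groups as a batch named in the labels. The deviations of same-numbered libraries from their group means correlated between -0.131 and 0.284 over TRAV, 0.034 and 0.451 over TRAJ and -0.398 and 0.78 over TRBV segments.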

Additional observations from a re-analysis of the deposited data

Results flagged for a closer look

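For 4 measures every anti-4-1BB minus IgG difference of experiment 2 was positive and every one of experiment 1 negative, in KO and in WT. Other measures were screened in the same way and did not show this. They were the mean CDR3 alpha length, the TRAJ30 and TRBV1 shares of TRAV13 receptors, and the TRAV13-1, TRAV13N-1 and TRAV13N-2 shares of receptors. The TRAV13 shares of receptors and of chains overlap as measures. The difference between the experiments was not tested, since each experiment gives only 1 pair of libraries per genotype, and the knockout type, tamoxifen and experiment cannot be told apart. The TRAV13 share of receptors changed by 5.51 points in KO and 1.58 in WT in experiment 2, and by -0.821 in KO and -1.72 in WT in experiment 1, so that the mean effects lay 4.81 points apart. The TRAV13 share of chains changed by 11.8 and 3.77 points in experiment 2 and by -0.550 and -0.939 in experiment 1 (KO, then WT), 8.51 points apart. The expanded share of TRAV13 changed by 32.1 and 27.2 points in experiment 2 and by -2.83 and -1.67 in experiment 1, 31.9 points apart. Receptors of other TRAV segments changed in the same directions, by 3.80 and 18.2 points in experiment 2 and by -6.45 and -8.33 in experiment 1. The TRAV13D-1 share of receptors changed by 0.242 and 0.144 points in experiment 2 and by -0.103 and -0.470 in experiment 1, 0.480 points apart. That share rests on 12 to 37 receptors per library. The TRBV1-TRAJ30 share of TRAV13 chains did not follow these signs in every pair: the anti-4-1BB library was above its IgG library in both pairs of experiment 2 and in KO of experiment 1, and below it in WT of experiment 1. Its part in these values was not tested.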

How the results depend on the processing

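The TRAV13 family value between anti-4-1BB and IgG kept its sign except without KO anti-4-1BB of experiment 2 (-0.081, against up to 0.30 with another library left out). KO against WT ran from -0.28 to 0.10 over the libraries left out, turning to 0.10 without KO anti-4-1BB of experiment 1 and to 0.024 without WT anti-4-1BB of experiment 2. The difference of the treatment effects ran from -0.14 to 0.62, the lowest without KO anti-4-1BB of experiment 2. Experiment 2 against experiment 1 ran from 0.12 to 0.38, the lowest without either KO anti-4-1BB library. Leaving out either library of a group takes that group out of this comparison, so both removals are 1 check. With the experiment as a replicate block the family values were 0.12 for treatment, -0.075 for genotype and 0.28 for the difference of the treatment effects, and the pairing changed no call. The count of TRAJ partners was 4 with DESeq2 and 5 to 9 over the libraries left out. The count of TRBV partners was 1 with DESeq2, with the main alpha chain alone, with 3 or more UMIs per chain and without TRBV1-TRAJ30 cells, 0 when cells were counted (edgeR, 4 at an unadjusted p under 0.05; DESeq2 was run on receptors only), and 1 to 3 over the libraries left out. The CDR3 alpha length difference ran from -0.508 to -0.480 over the libraries left out, where 7 libraries allow no adjusted p under 0.0938. The share of alpha chains seen in another library turned to -0.399 and -0.685 without TRBV1-TRAJ30 cells and without every TRBV1 and TRAJ30 cell. KO minus WT in the expanded share turned to -2.42 without thinning, to -0.220 and -1.05 in the same removals, and ran from -0.718 to 3.52 over the libraries left out. Anti-4-1BB minus IgG in it ran from 7.55 to 19.2 points and was 7.96 without TRBV1-TRAJ30 cells. Of single labels, TRAV13-1 between anti-4-1BB and IgG ran from 0.016 to 0.48 over the libraries left out. TRAV13N-1 turned to -0.019 with 3 or more UMIs, to -0.10 and -0.21 in the removals, and ran from -0.27 to 0.23 over the libraries left out. TRAV13N-2 ran from -0.084 to 0.32 and TRAV13D-1 from -0.45 to 0.14 in that comparison, and TRAV13D-1 from -0.085 to 0.58 between the experiments. None of these single-label values passed a test. The cause was not tested. The smallest library held 255 TRAV13 receptors, which limits rare copies.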
